A study of Drosophila melanogaster with 11 samples.

Results

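The colour of the Drosophila compound eye comes from brown ommochromes and red pteridines, and 10 genes that make or move these pigments were followed here in the heads of flies kept at different temperatures. They are w (white), st (scarlet) and bw (brown), which encode the subunits of the pigment transporters, v (vermilion) and cn (cinnabar), which encode enzymes of the ommochrome branch, and Pu (Punch), pr (purple), se (sepia), ry (rosy) and Hn (Henna), which encode enzymes of pteridine chemistry. The genes were picked by name and not by a filter on their values, but earlier results of these data were known at the time. All 10 had a linear row in the table, out of 13804 linear genes in all. None of the 1928 circRNAs in the table had the symbol of one of the 10 genes as its named host. A host named only by a gene identifier would not have been matched.

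Total RNA was sequenced from heads of wild-type CantonS males reared at 25 °C in 12 h of light and 12 h of dark. The series design gives 3 days of mating (the methods of the study say fewer), after which males were set apart under CO2 and rested for 1 day, and they were then either frozen (pre-treatment, 3 libraries) or held for 10 days at 18 °C (3 libraries), 25 °C (2 libraries) or 29 °C (3 libraries) before freezing. All groups share the strain, the sex, the rearing and the CO2 exposure, each library came from pooled flies, and the treated flies are 10 days older than the pre-treatment flies. Part of the design text names brains, but the markers of fat body (6 of 6 genes, summing to between 969021 and 1431641 normalized reads in a library) and of photoreceptors (13 of 13 genes) were abundant in every library, and the 3 testis markers summed to at most 107 normalized reads.

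Ommochromes are built from tryptophan. Vermilion is the tryptophan 2,3-dioxygenase that opens the indole ring, cinnabar the kynurenine 3-monooxygenase that makes 3-hydroxykynurenine, and cardinal (cd) a peroxidase-like enzyme of the last steps. Pteridines are built from GTP. Punch is GTP cyclohydrolase I, the entry enzyme, purple is 6-pyruvoyltetrahydropterin synthase, sepia makes the intermediate on the way to the red drosopterins, and rosy is xanthine dehydrogenase, a molybdenum enzyme that turns pterins into isoxanthopterin and also makes uric acid. The same early steps give tetrahydrobiopterin, the cofactor of henna (phenylalanine hydroxylase) and of the hydroxylases that start dopamine and serotonin synthesis. White is the shared subunit of both transporters, which are ATP-binding cassette proteins of the ABCG type in the pigment granule membrane. White with scarlet carries ommochrome precursors and white with brown carries pteridine precursors, so a fly without white has unpigmented eyes.

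In dm6 (Ensembl gene models) w lies at chrX:2790599-2796466 on the minus strand with 2352 nt of exon, inside the span of kirre on the other strand. The other transporter subunits are st at chr3L:16497651-16500460 (plus strand, 2146 nt of exon), inside the span of CG43373, and bw at chr2R:23527805-23538499 (minus strand, 2738 nt). The ommochrome enzymes are v at chrX:10923972-10925631 (plus strand, 1305 nt) and cn at chr2R:7782797-7785067 (minus strand, 1790 nt). The pteridine enzymes are Pu at chr2R:21175315-21182608 (plus strand, 2152 nt), pr at chr2L:20073719-20075458 (minus strand, 1073 nt), se at chr3L:8520552-8521489 (plus strand, 825 nt), ry at chr3R:13032528-13038020 (plus strand, 4337 nt) and Hn at chr3L:7760453-7763166 (plus strand, 2115 nt). Levels per kb use these exon lengths, since the gene models behind the deposited values are not given in the sources used here. Of the 10 genes, bw shares 456 nt of exon with mi, se shares 61 nt with GstO2, pr shares 1 nt with bwa and cn shares 1229 nt with asRNA:CR45108, each on the opposite strand. The libraries keep strand, but the strand setting of the read counting is not given in the sources used here, so the values of bw, se and above all cn are uncertain to that extent. The partners averaged 1613 normalized reads (mi) and 3703 (GstO2) over the 11 libraries.

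Libraries held between 32.1 M and 123 M reads, with those at 18 °C deepest on average. The 10 genes took a small part of them. They made up 0.0876% to 0.0955% of linear normalized reads before treatment, 0.0978% to 0.114% at 18 °C, 0.0978% to 0.0981% at 25 °C and 0.0842% to 0.0942% at 29 °C. In what follows a normalized read is a read divided by the library's size factor, as the authors scaled it. A change was called at a Benjamini-Hochberg adjusted p under 0.05 with an absolute log2 fold change above 0.5, in a limma fit of all 11 libraries. As these are whole heads, fewer cells of a type and less RNA per cell cannot be told apart. Nothing in the labels says more of how the replicates were raised, so a p-value speaks of the spread among these libraries only, and comparisons that share a group share its libraries.

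Per kilobase of exon, the 10 genes spanned several orders of magnitude and Hn and Pu stood first and second in every group. The level of Hn averaged 11031 ± 508 normalized reads per kb before treatment (SD, n = 3), 16094 ± 2116 at 18 °C (n = 3), 14952 ± 465 at 25 °C (n = 2) and 13112 ± 1140 at 29 °C (n = 3). Pu followed at 6481 ± 685, 5016 ± 140, 3834 ± 335 and 3091 ± 183 normalized reads per kb in the same order of groups. The libraries of Hn and Pu did not overlap in any group. Below them pr, se, v and ry formed a middle set in which each neighbour overlapped the next before treatment, at 18 °C and at 25 °C. The transporters came below this set, with bw above st and st above w in all 4 groups and no overlap between these neighbours. At 29 °C w averaged 214 ± 16.3, st 503 ± 31.5 and bw 1144 ± 53.1 normalized reads per kb. The order of the middle set was not the same at all temperatures. Before treatment se was the fourth of the 10 genes at 2449 ± 616 normalized reads per kb, whereas at 29 °C it was the sixth at 1273 ± 150, overlapping ry above it and bw below it. In contrast v was the fifth before treatment (2110.1 ± 451) and the third at 29 °C (2617 ± 343), where its libraries lay apart from those of pr below it.

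**Figure D1:**
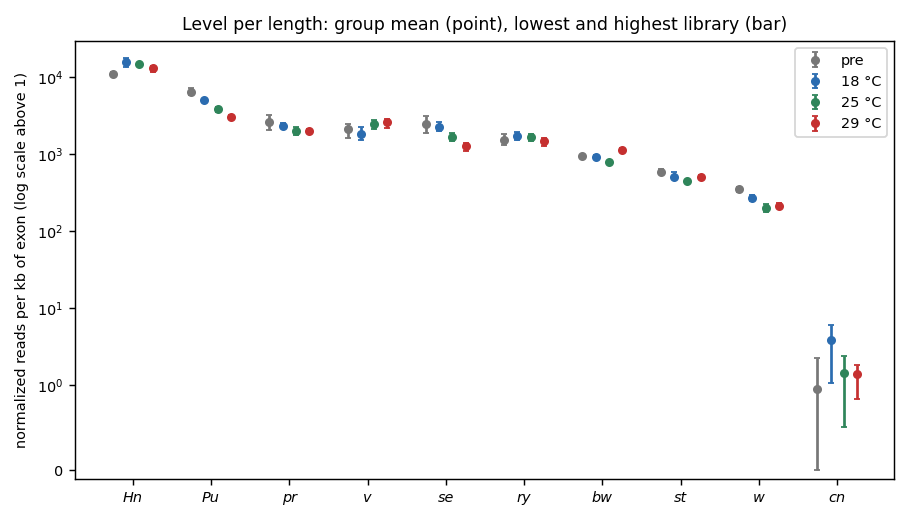
Level of the 10 eye pigment genes in normalized reads per kb of exon on a log axis (linear below 1), with a point for each group mean and a bar from the lowest to the highest library. Hn and Pu lead in all 4 groups, bw, st and w follow the middle set in that order, and cn lies near 0.

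Cinnabar was barely detected. Its recovered reads were 0, 1 and 2 before treatment, 12, 4 and 9 at 18 °C, 1 and 4 at 25 °C and 3, 3 and 2 at 29 °C. The mean over the 11 libraries was 3.498 normalized reads, and 3 reads are worth between 1.42 and 5.98 normalized reads depending on the library. The gene lay below the mean of 10 that testing required, so 9 of the 10 genes were tested, and no fold is given for it. The largest values were at 18 °C, where 1 library nonetheless overlapped the other groups. How far the 1229 nt shared with the antisense RNA set this level was not tested.

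The main comparison asked how heads differ after 10 days at 29 °C against 18 °C. Of the 9 tested pigment genes, 2 were lower at 29 °C and none was called higher in the limma fit of all libraries (some other fits called v higher, as given with its values), beside 5.29% of all 12676 tested genes called lower and 5.36% called higher. Both that fell, Pu and se, act in the pteridine branch. Pu had 6709, 6233 and 7016 normalized reads at 29 °C, against 10889, 11037 and 10455 at 18 °C. All 3 libraries at 29 °C lay below all those at 18 °C, and the mean was 1.62-fold lower (log2 fold change -0.70, SE 0.087, limma adjusted p = 0.000446). Se had 920.5, 1166 and 1063 normalized reads at 29 °C, against 1777, 1664 and 2194 at 18 °C. Again the groups did not overlap, and the mean was 1.79-fold lower (log2 fold change -0.84, SE 0.18, limma adjusted p = 0.00969).

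The rest of the pteridine branch did not pass the threshold between these temperatures. Purple, the step after Pu, had 2084 to 2299 normalized reads at 29 °C against 2332 to 2734 at 18 °C (log2 fold change -0.20, 95% interval -0.53 to 0.13). For ry the values were 5505 to 7154 at 29 °C against 6643 to 8520 at 18 °C and overlapped (-0.24, interval -0.57 to 0.09). Hn had 24965 to 29373 normalized reads at 29 °C against 29277 to 38158 at 18 °C, with an overlap of 1 library (-0.29, interval -0.52 to -0.07, limma adjusted p = 0.0751). So the values of all 5 pteridine enzymes had a negative sign here, of which 2 were called.

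The transporters did not share a direction. Brown had 3067, 3297 and 3029 normalized reads at 29 °C, against 2481, 2360 and 2716 at 18 °C. The groups did not overlap, but the log2 fold change of 0.32 (SE 0.072, limma adjusted p = 0.0123) was under the fold limit. White had 546, 493 and 471 normalized reads at 29 °C, against 592, 698 and 588 at 18 °C (log2 fold change -0.31, limma adjusted p = 0.103). For st the libraries overlapped (1028 to 1156 at 29 °C against 1008 to 1245 at 18 °C), with a log2 fold change of -0.02 and an interval of -0.24 to 0.21. In the ommochrome branch v had 2906, 3593 and 3746 normalized reads at 29 °C, against 2234, 2027 and 2913 at 18 °C, with 1 library of each group overlapping (log2 fold change 0.52, SE 0.19, limma adjusted p = 0.0834). The call of v depended on the fit, since v was called higher with DESeq2 on recovered reads (adjusted p = 0.0452), with equal linear totals (limma adjusted p = 0.0423), with quantile normalization (0.0461) and in a limma fit of these 2 groups alone (0.0394), but not with edgeR. Leaving out replicate 3 at 18 °C (limma adjusted p = 0.0431) or pre-treatment replicate 2 (0.0452) also gave the call, and leaving out replicate 3 at 29 °C moved it to 0.241. In total the libraries of 5 of the 9 genes did not overlap between 29 and 18 °C, where 42.9% of all tested genes did not overlap, and the median log2 fold change of the 9 was -0.24 against -0.0037 for all tested genes.

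**Figure D2:**
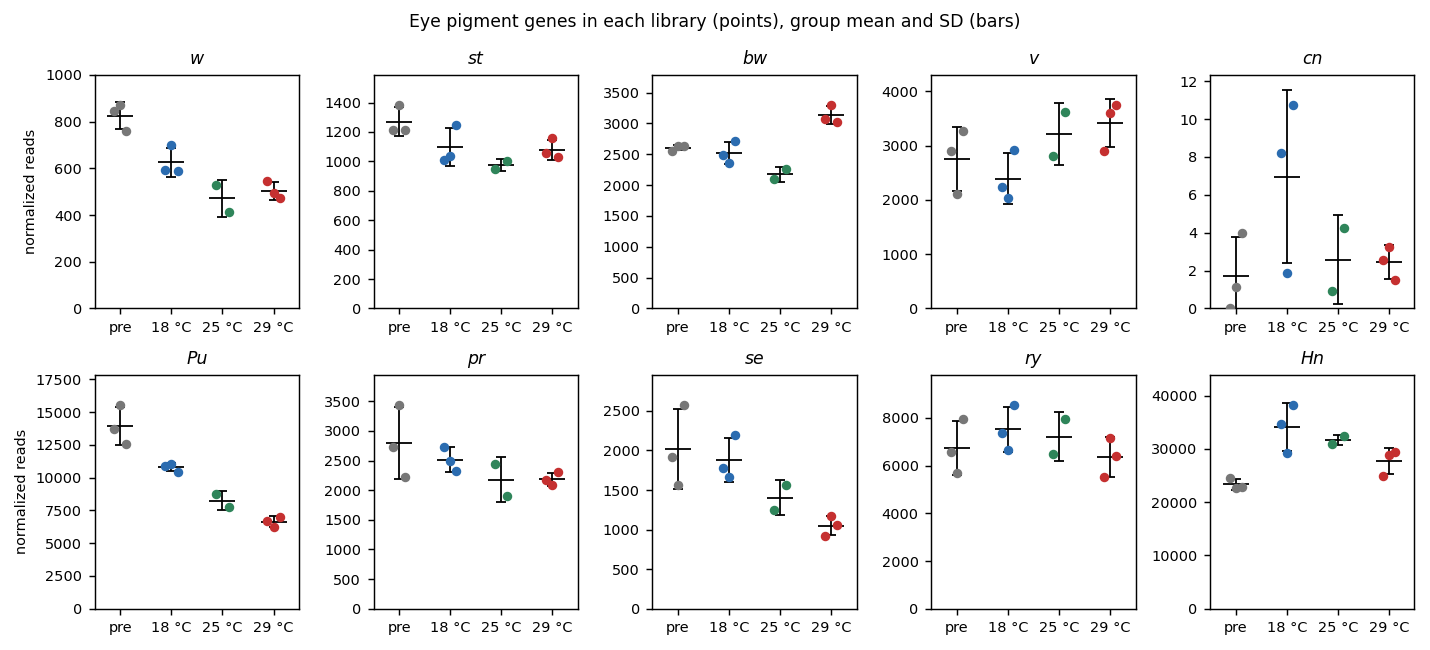
Normalized reads of each of the 10 eye pigment genes by library (points) in flies before treatment and after 10 days at 18, 25 and 29 °C, with the group mean and SD as bars (those of cn are drawn only above 0) and every axis starting at 0. Pu steps down from pre-treatment to 29 °C, se is lowest at 29 °C and overlaps between pre-treatment and 18 °C. White is highest before treatment and bw at 29 °C, and the mean of Hn is highest at 18 °C, where it overlaps 25 °C.

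The comparison of 25 °C with pre-treatment, 10 days at the rearing temperature, separates the time in the experiment from a change of temperature. Here 2 of 9 genes were lower and none was called higher, beside 2.66% and 2.77% of all tested genes. White had 528 and 415 normalized reads at 25 °C, against 845, 871 and 762 before treatment, which is 1.75-fold lower (log2 fold change -0.82, SE 0.13, limma adjusted p = 0.00482). Pu had 8759.95 and 7742 normalized reads at 25 °C, against 13722, 15520.5 and 12599.8 before treatment, which is 1.69-fold lower (-0.75, SE 0.097, limma adjusted p = 0.00139). Neither gene overlapped between the groups, but with the 5 libraries of these groups fitted alone, limma's adjusted p was 0.0890 for w and 0.0623 for Pu and both calls ended. Hn had 30928 and 32318 normalized reads at 25 °C, against 24571, 22665 and 22759 before treatment, a difference under the fold limit (0.44, SE 0.11, limma adjusted p = 0.0404). With log2 depth as a covariate Hn was called higher (0.56, limma adjusted p = 0.00671). For se, with 1246 and 1559 normalized reads at 25 °C against 1923, 1569 and 2571 before treatment, the log2 fold change was -0.51 and limma's adjusted p = 0.174. The libraries of 6 of the 9 genes did not overlap, where 30.4% of all tested genes did not.

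After 10 days at 29 °C the same 2 genes and se were lower than before treatment. These 3 of 9 genes stand beside 6.89% of all tested genes called lower and 5.92% called higher. Pu was 2.10-fold lower (log2 fold change -1.06, SE 0.087, limma adjusted p = 2.97e-05), se 1.92-fold lower (-0.92, SE 0.18, limma adjusted p = 0.00525) and w 1.64-fold lower (-0.71, SE 0.12, limma adjusted p = 0.00214). In each of the 3 genes all libraries at 29 °C lay below all pre-treatment libraries. For bw all 3 lay above, at a log2 fold change of 0.26 that was under the fold limit (SE 0.072, limma adjusted p = 0.0256). With log2 depth as a covariate pr was also called lower (-0.54, limma adjusted p = 0.0331) and v higher (0.67, limma adjusted p = 0.0139). The groups of 6 of 9 genes did not overlap, against 41.2% of all tested genes. Age and temperature change together in this comparison and cannot be told apart in it.

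At 18 °C against pre-treatment limma called 1 pigment gene, Hn. It had 34683, 29277 and 38158 normalized reads at 18 °C, against 24571, 22665 and 22759 before treatment, and was 1.46-fold higher without overlap (log2 fold change 0.54, SE 0.10, limma adjusted p = 0.00621). Without replicate 3 at 18 °C the log2 fold change was 0.45 and fell under the fold limit (limma adjusted p = 0.0177). Between 18 and 25 °C the libraries of Hn overlapped (log2 fold change 0.098, limma adjusted p = 0.749). At 25 °C against pre-treatment Hn also had higher values, under the fold limit (0.44, limma adjusted p = 0.0404), and was called higher with log2 depth as a covariate (0.56, limma adjusted p = 0.00671). At 18 °C against pre-treatment this 1 gene of 9 stands beside 4.69% of all tested genes called higher and 4.44% called lower. Pu (log2 fold change -0.36, limma adjusted p = 0.0186) and w (-0.40, limma adjusted p = 0.0461) had lower values at 18 °C than before treatment, both without overlap and both under the fold limit. With log2 depth as a covariate both were called lower (Pu -0.55, limma adjusted p = 0.0084, and w -0.59, limma adjusted p = 0.0383). The groups of 3 of 9 genes did not overlap, where 31.5% of all tested genes did not. Here too age and temperature change together and cannot be told apart.

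The last comparisons set 29 and 18 °C against 25 °C, a group of only 2 libraries. At 29 °C bw was higher than at 25 °C, with 3067, 3297 and 3029 normalized reads at 29 °C against 2091 and 2258 at 25 °C, or 1.44-fold (log2 fold change 0.53, SE 0.080, limma adjusted p = 0.0157). The fold lay just past the limit, and leaving out replicate 1 at 25 °C (0.47, limma adjusted p = 0.116) or replicate 1, 2 or 3 at 29 °C (adjusted p = 0.0664, 0.0862 and 0.0587) ended the call. It was the 1 gene of 9 called, beside 0.245% of all tested genes called higher and 0.394% called lower, and the groups of 5 of 9 genes did not overlap, where 27.3% of all tested genes did not. At 18 °C against 25 °C limma called 0 of 9 genes, as did edgeR and DESeq2 on recovered reads, while 3 of 9 had an unadjusted p under 0.05. Pu came nearest, with a log2 fold change of 0.39 (limma adjusted p = 0.0499) under the fold limit. With log2 depth as a covariate se was called higher at 18 °C (0.64, limma adjusted p = 0.0239). Of all tested genes 1.55% were called higher and 1.68% lower at 18 °C. The libraries of 5 of 9 genes, all with the higher values at 18 °C, did not overlap, where 31.7% of all tested genes did not.

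**Figure D3:**
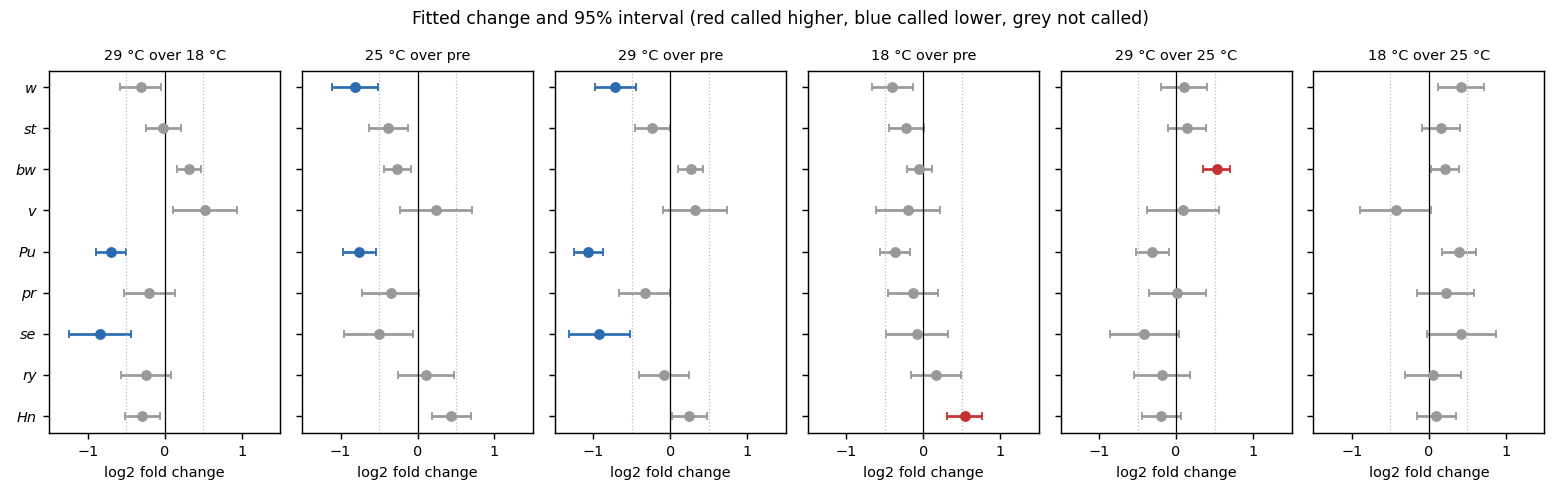
Log2 fold change of the 9 tested eye pigment genes in the 6 comparisons, with 95% intervals from the limma fit and dotted lines at the fold limit of 0.5. Pu and se at 29 °C over 18 °C, w and Pu at 25 °C over pre-treatment, and w, Pu and se at 29 °C over pre-treatment are called lower, while Hn at 18 °C over pre-treatment and bw at 29 °C over 25 °C are called higher.

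Over the 4 groups the levels of Pu were set apart throughout. Its mean was 13948 ± 1473 normalized reads before treatment (SD, n = 3), 10794 ± 302 at 18 °C (n = 3), 8251 ± 720 at 25 °C (n = 2) and 6653 ± 394 at 29 °C (n = 3), and the libraries of no group overlapped those of another. In w the treated groups lay closer together, with 826 ± 57.1 normalized reads before treatment, 626 ± 62.5 at 18 °C, 471 ± 80.2 at 25 °C and 504 ± 38.4 at 29 °C, and the libraries at 25 and 29 °C overlapped. In bw the lowest group was 25 °C with 2174 ± 118 and the highest 29 °C with 3131 ± 145 normalized reads, with 2607 ± 46.3 before treatment and 2519 ± 181 at 18 °C.

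The balance of the transporter subunits was compared as a ratio within each library, which removes the library's scaling. The ratio of st to bw was 0.344, 0.351 and 0.340 at 29 °C, against 0.406, 0.438 and 0.458 at 18 °C. The ratio at 29 °C was also below those of the 2 libraries at 25 °C (0.445 and 0.453) and of the 3 before treatment (0.461 to 0.525), so the 3 libraries at 29 °C had the lowest values of all 11. White to brown ran from 0.150 to 0.178 at 29 °C, against 0.289 to 0.331 before treatment, a geometric mean ratio of 0.508 between the groups. White to scarlet ran from 0.427 to 0.517 at 29 °C, against 0.627 to 0.696 before treatment. Exact two-sided permutation tests of the log2 ratios cannot go below 0.1 with 3 libraries against 3 or 0.2 with 2 against 3. Over the 18 such tests (3 ratios, 6 comparisons) the smallest exact p was 0.1 and its Benjamini-Hochberg adjusted value 0.277, so none could reach the threshold.

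Within the enzymes, 3 further ratios were chosen after the values had been seen and are given as a description without a test. Sepia to rosy was 0.276 to 0.324 before treatment, 0.241 to 0.258 at 18 °C, 0.192 to 0.196 at 25 °C and 0.163 to 0.167 at 29 °C. These 4 ranges do not touch, although the levels of both genes varied widely between libraries of a group. Punch to purple was 4.52 to 5.66 before treatment, 3.98 to 4.48 at 18 °C, 3.58 to 4.06 at 25 °C and 2.99 to 3.09 at 29 °C. Vermilion to rosy was 0.371 to 0.440 before treatment, 0.303 to 0.342 at 18 °C, 0.435 to 0.455 at 25 °C and 0.502 to 0.584 at 29 °C, where the libraries at 29 °C lay above all others.

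**Figure D4:**
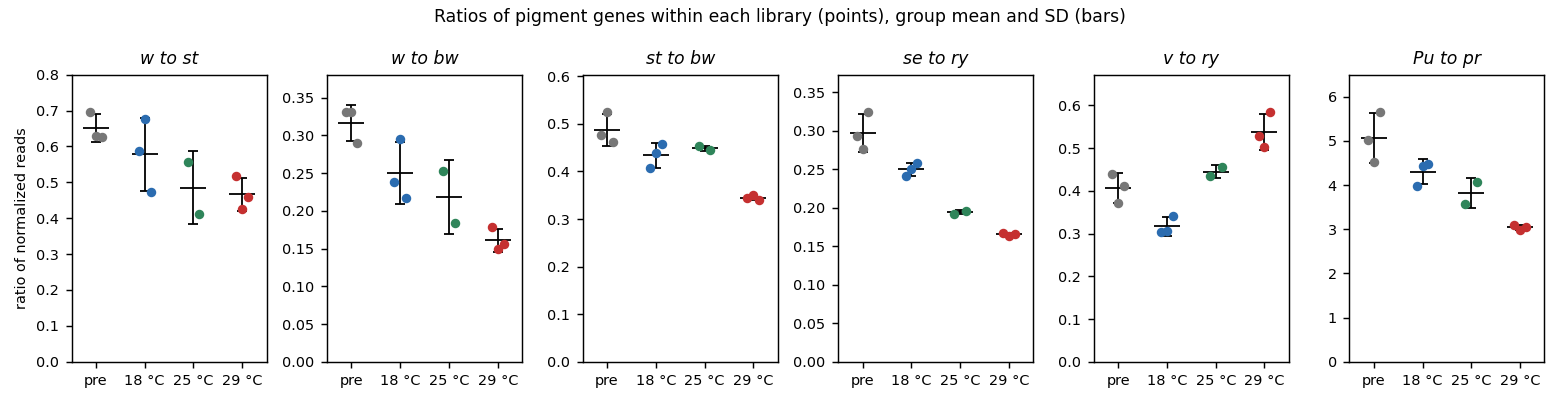
Ratios of normalized reads of pairs of eye pigment genes within each library (points), with group mean and SD as bars, for flies before treatment and after 10 days at 18, 25 and 29 °C. St to bw is near 0.34 in all 3 libraries at 29 °C and above 0.40 in the other 8, and se to ry steps down over the 4 groups without overlap.

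Libraries of 1 group also differed from each other along a shared direction. The first component of the deviations of all tested genes from their group means held 48.4% of that variance and was highest in replicate 3 before treatment, replicate 3 at 18 °C, replicate 2 at 25 °C and replicate 2 at 29 °C. Over the 11 libraries the deviations of se (r = 0.95), ry (0.92) and v (0.86) ran with it and those of Pu (-0.90), pr (-0.90) and w (-0.77) ran against it, with bw at 0.67, Hn at 0.40 and st at 0.25. These correlations are a description, since the component was made from the same libraries. Its source was not tested.

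Pigment cells of the retina carry eye pigments, so other genes of the retina were set beside the pigment genes. Pdh and Crys, markers of the cone and pigment cells, were both lower at 29 °C than at 18 °C and than before treatment. Their sum ran from 83762 to 99358 normalized reads before treatment, 47026 to 51236 at 18 °C, 49822 to 57607 at 25 °C and 29882 to 31390.5 at 29 °C. Pdh, a dehydrogenase of the retina, was 1.62-fold lower at 29 °C than at 18 °C (log2 fold change -0.70, limma adjusted p = 0.000242), and 1.74-fold lower at 25 °C than before treatment (-0.80, limma adjusted p = 0.000578). Crys, a protein of the lens, was also lower at 29 °C than at 18 °C (log2 fold change -0.58, limma adjusted p = 0.0324). Of the 13 photoreceptor markers 5 were higher and 0 lower at 29 °C against 18 °C, while the other 8 did not pass, and the list had sums of 3198553 to 3373339 normalized reads at 29 °C against 2308601 to 2436612 at 18 °C. Of 6 glial markers 4 were lower at 29 °C than at 18 °C (sums of 56578 to 58060 against 88750 to 94162), and of 6 fat body markers 2 were lower (969021 to 1220612 against 1147525 to 1431641). Of 4 muscle markers 1 was higher and 1 lower (sums of 167069 to 172871 at 29 °C against 108878 to 126987 at 18 °C), and of 3 hemocyte markers 2 were higher (17246 to 18169.8 against 13091 to 14392). The remaining hemocyte marker, Pxn, was not called (log2 fold change -0.18, limma adjusted p = 0.0556). At 25 °C against pre-treatment, where w and Pu fell, no photoreceptor, neuron or fat body marker was called by limma, 2 glial markers were lower (66021 to 72316 at 25 °C against 79368 to 92657 before treatment) and 2 muscle markers were lower (137695 to 164496 against 228269 to 282356). Of 3 hemocyte markers 1 (Pxn) was lower in this comparison (log2 fold change -0.54, limma adjusted p = 0.000941). At 29 °C against pre-treatment, where w, Pu and se fell, 6 of 13 photoreceptor markers were higher and 3 of 6 glial, 3 of 6 fat body and 3 of 4 muscle markers were lower. Pxn was the 1 of 3 hemocyte markers that was lower (log2 fold change -0.61, limma adjusted p = 7.47e-05). Among 3 testis markers 1 (aly) was higher, at 19.8 ± 1.76 normalized reads against 7.70 ± 1.99. At 18 °C against pre-treatment, where Hn rose, 2 fat body markers (to and AkhR) were higher and 1 (fit) lower, with sums of 1147525 to 1431641 normalized reads at 18 °C against 1064740.2 to 1143203 before treatment. In the same comparison 1 glial marker (Indy) was higher (sums of 88750.04 to 94162 at 18 °C against 79368 to 92657 before treatment), 3 photoreceptor markers (trp, trpl and norpA) were lower (2308601 to 2436612 against 2394892 to 2470379), Pdh was lower, and 2 of 4 muscle and 1 of 3 hemocyte markers were lower. There 1 of 3 testis markers (bam) was higher, at 31.3 ± 9.63 normalized reads against 7.93 ± 10.4. Of all tested genes 5.36% were called higher and 5.29% lower at 29 against 18 °C. Against pre-treatment the shares called higher and lower were 2.77% and 2.66% at 25 °C, 5.92% and 6.89% at 29 °C, and 4.69% and 4.44% at 18 °C. None of these markers was at 0. The part of such shifts in the changes of Pu, se, w and Hn was not tested.

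The other genes of the pathways show which steps moved beside the 10. Of 4 other ommochrome and kynurenine genes, 2 were lower at 25 °C and at 18 °C than before treatment. Of all tested genes 2.66% and 4.44% were called lower in these comparisons. Cardinal had 599 ± 104 normalized reads at 25 °C (n = 2), against 1061 ± 82.2 before treatment (n = 3), and its log2 fold change was -0.83 (limma adjusted p = 0.00349). Karmoisin (kar), an eye colour gene of the monocarboxylate transporter family, had 3366 ± 298 at 25 °C against 4790 ± 487 before treatment (-0.51, limma adjusted p = 0.0176). Neither passed the limits between 29 and 18 °C, where cd had 656 ± 61.1 and 638 ± 27.3 normalized reads. At all 3 temperatures cd was lower than before treatment, whereas limma called v in none of these 3 comparisons, although with log2 depth as a covariate v was higher at 29 °C than before treatment (0.67, limma adjusted p = 0.0139).

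Of 12 other tested pteridine, tetrahydrobiopterin and molybdenum cofactor genes, 4 were lower at 29 °C than at 18 °C, and the same 4 were higher at 18 °C than before treatment, comparisons that share the libraries at 18 °C. They were Mocs1, sni, AOX1 and AOX2. Sptr (-0.08), Dhpr (-0.57, limma adjusted p = 0.285), Pcd (0.03), cl (0.04) and DhpD (-0.11) were not called at 29 °C against 18 °C. Nor were cin, mal and AOX3. At 29 °C against pre-treatment, where Pu and se were lower, 1 of the 4 (AOX1) was lower. Of all tested genes, 5.29% were called lower at 29 °C than at 18 °C and 4.69% higher at 18 °C than before treatment. At 29 °C against pre-treatment 6.89% were called lower. Mocs1, which acts in the synthesis of the molybdenum cofactor that xanthine dehydrogenase needs, had 1544 ± 41.3 normalized reads at 29 °C against 2444 ± 123 at 18 °C (n = 3 each, log2 fold change -0.66, limma adjusted p = 0.000284). The carbonyl reductase sniffer (sni) had 892 ± 30.6 at 29 °C against 1510.2 ± 239 at 18 °C (-0.75, limma adjusted p = 0.00105). The aldehyde oxidase AOX1, which uses the same cofactor, had 12220.3 ± 1589 at 29 °C against 28300 ± 3725 at 18 °C (-1.21, limma adjusted p = 0.000737). AOX2, another aldehyde oxidase, had 86.4 ± 11.2 at 29 °C against 131 ± 9.03 at 18 °C (-0.60, limma adjusted p = 0.0193). Rosy itself, the xanthine dehydrogenase, was not called by limma between 29 and 18 °C or between 18 °C and pre-treatment, but with log2 depth as a covariate it was higher at 18 °C than before treatment (0.56, limma adjusted p = 0.0329). Mal, whose product adds sulphur to the cofactor, was not called by limma in these comparisons either (1179 ± 68.1 normalized reads at 29 °C and 1127 ± 65.7 at 18 °C).

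The granule group genes sort proteins to pigment granules and lysosomes. Against pre-treatment, 2.66% of all tested genes were called lower and 2.77% higher at 25 °C. At 29 °C the shares were 6.89% and 5.92%. Of the 21 granule group genes, 1 was called in these comparisons. It was Rab32, the small GTPase of the locus lightoid, with 13388 ± 79.5 normalized reads at 25 °C (n = 2) against 20504 ± 746 before treatment (n = 3), or 1.53-fold lower (log2 fold change -0.61, limma adjusted p = 4e-04). At 29 °C against 18 °C its log2 fold change of -0.35 was under the fold limit. The median log2 fold change of the 21 genes at 29 °C over 18 °C was 0.01, against -0.0037 for all tested genes.

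White, scarlet and brown belong to the ABCG family, which has 12 other members in the table. Of these, 5 were lower at 29 °C than at 18 °C and the same 5 were higher at 18 °C than before treatment, while limma called none of these 5 between 29 °C and pre-treatment. The lowest adjusted p-values were those of CG9664 (log2 fold change -0.92, limma adjusted p = 0.000108), CG32091 (-0.83, 0.000108), CG5853 (-1.28, 0.000122) and CG4822 (-0.58, 0.00119). At 25 °C against pre-treatment CG17646 (0.66, limma adjusted p = 0.00143) and CG4822 (0.51, limma adjusted p = 0.00917) were higher, the comparison in which w was lower. The median log2 fold change of the 12 genes at 29 °C over 18 °C was -0.28. Of all tested genes, 5.29% were called lower at 29 °C than at 18 °C and 4.69% higher at 18 °C than before treatment. At 25 °C against pre-treatment 2.77% were called higher.

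Tetrahydrobiopterin from the Pu and pr steps also serves amine synthesis. Pale (ple), the tyrosine hydroxylase that starts dopamine synthesis, had 5265 ± 510 normalized reads at 25 °C against 13023 ± 572 before treatment, or 2.47-fold lower (log2 fold change -1.31, limma adjusted p = 6.84e-05), and it was also lower at 18 and at 29 °C than before treatment. At 29 °C against 18 °C ple differed by 0.28, under the fold limit, the tryptophan hydroxylase gene Trhn was higher (0.67, limma adjusted p = 0.00031) and Ddc, the decarboxylase that follows ple and Trhn, was lower (-0.85, limma adjusted p = 0.00519). So of the 5 genes of this list 1 rose and 1 fell at 29 °C against 18 °C, and 1 fell at 25 °C against pre-treatment. Of all tested genes, 5.36% were called higher and 5.29% lower at 29 °C against 18 °C, and 2.66% lower at 25 °C against pre-treatment.

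**Figure D5:**
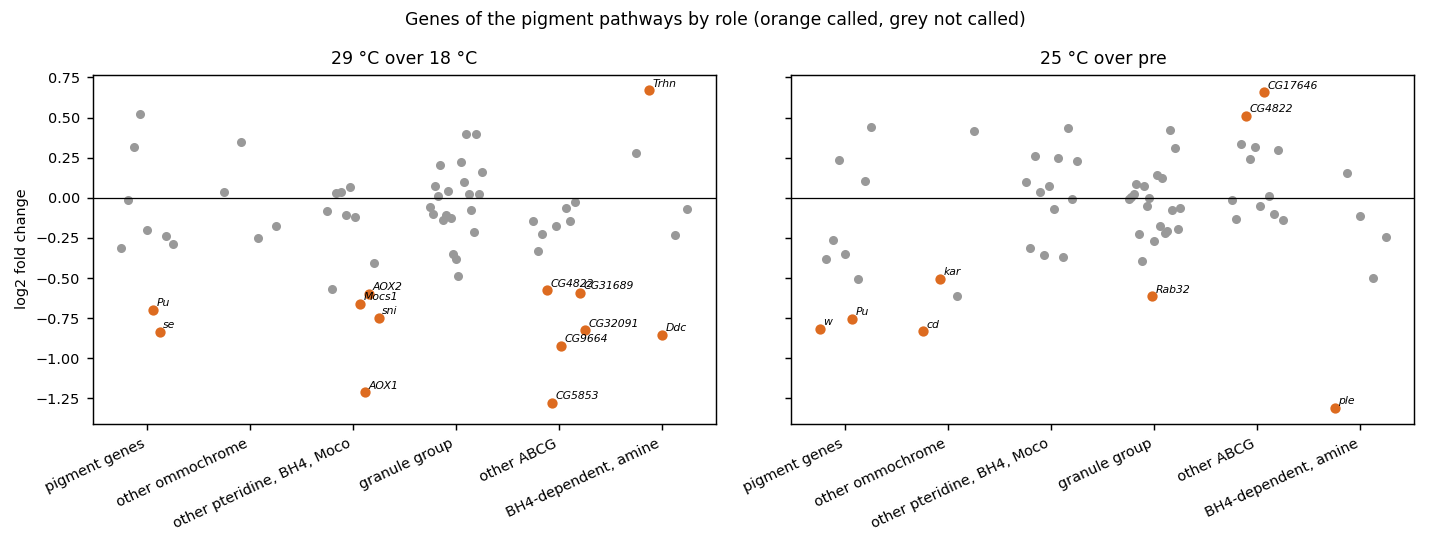
Log2 fold change of the tested pigment genes and of 5 lists of related genes at 29 °C over 18 °C (left) and at 25 °C over pre-treatment (right), with called genes in orange and named. At 29 °C over 18 °C Pu, se, 4 pteridine and cofactor genes, 5 ABCG genes and Ddc are called lower and Trhn higher. At 25 °C over pre-treatment w, Pu, cd, kar, Rab32 and ple are those called lower, and CG4822 and CG17646 are called higher.

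For each tested pigment gene the most similar of 9929 genes with a mean of 100 or more was found by Pearson's r of log2 values over the 11 libraries, which share 4 groups and the component described above. The values of r are therefore a description. Pu ran closest to CG4238 (r = 0.99), se to CG13833 (0.99), Hn to CG15293 (0.97) and pr to CG13606 (0.94). White ran closest to pot (0.96), ry to Zw, the glucose-6-phosphate dehydrogenase gene (0.97), and v to the ribosomal protein gene RpL7A (0.96). The weakest closest matches were those of st with βTub56D, a beta tubulin (0.90), and of bw with Serinc (0.89).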

How the data were processed

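Groups were taken from the labels. The deposited values are a signal, normalized reads made by the authors: reads were aligned to dm6 with STAR, counted per gene with featureCounts, and divided by 1 DESeq2 size factor per library over circRNAs and genes together. Versions, gene models and strand setting of the counting are not given in the sources used here. Of the deposited values 100% were whole reads after rescaling (within 0.01), which served as input to edgeR 4.0.16 and DESeq2 1.42.0. A floor of 3 reads covers counting error alone.

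For testing, limma 3.58.1 (R 4.3.3, intensity trend, no covariate) was run on log2(value + 1) of the 12676 linear genes that averaged at least 10, and p-values were Benjamini-Hochberg adjusted over all of these. Folds are ratios of group means, and a log2 fold change understates the change of low genes. On simulated data for 29 against 18 °C (12676 genes) the step recovered 55.2%, 91.0% and 100% of genes changed 1.5-fold, 2-fold and 4-fold, with 9 of 173 calls false. How far these figures hold for the real libraries, which also vary along a shared direction within groups, was not tested. Alternatives were pseudocounts of 0.5 and 10, filters, scalings, a replicate block, a depth covariate, fits of 2 groups, other tools and leaving out each library.

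The 10 genes and all lists were chosen with earlier results of these data known. Beside the 10, the rule named up to 4 called genes per pathway list by adjusted p (29 against 18 °C, 25 °C against pre-treatment) and the gene most like each.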

Additional observations from a re-analysis of the deposited data

How the results depend on the processing

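The 9 tested genes in 6 comparisons gave 54 log2 fold changes and 1350 values under other settings, of which 1296 kept their direction and call. Another 23 changed sign where neither value was called, 9 lost a call and 22 gained one. Pu and se at 29 against 18 °C and w, Pu and se at 29 °C against pre-treatment kept their calls in all 25 settings, while bw at 29 against 25 °C kept its call in 19. Not all of these settings put a call to a test. Having no minimum fold only loosens the rule, and the covariate of the within-group component removes spread by construction. Leaving out a library of neither compared group leaves the log2 fold change as it was. Signs changed with equal linear totals for st at 29 against 18 °C (0.027) and ry at 29 °C against pre-treatment (0.0030). They changed with log2 depth as a covariate for ry at 29 °C against pre-treatment (0.19), for bw (0.090), v (0.31) and se (0.40) at 18 °C against pre-treatment, and for pr at 29 against 25 °C (-0.024). Replicate deviations had r of -0.47 to 0.47 in 15 same-numbered pairs and -0.51 to 0.47 in others, which cannot settle pairing. With the replicate block v at 29 against 25 °C was -0.029, ry at 18 against 25 °C was -0.018, v at 29 against 18 °C gained a call (0.52, limma adjusted p = 0.0476), and bw lost its call (0.51, limma adjusted p = 0.0647), leaving 0 genes called at 29 against 25 °C.

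The number of pigment genes called moved in the fit of the 2 groups alone to 0 at 25 °C against pre-treatment and to 0 at 29 against 25 °C. With the depth covariate it was 5 at 29 °C against pre-treatment, 4 at 18 °C against pre-treatment and 1 at 18 against 25 °C. With no minimum fold it was 3 at 18 °C against pre-treatment and 1 at 18 against 25 °C. Leaving out 1 library gave 0 to 1 genes at 18 °C against pre-treatment and 0 to 1 at 29 against 25 °C. Log2 fold changes then ran from -0.073 to 0.079 for st at 29 against 18 °C, from -0.043 to 0.25 for ry at 25 °C and from -0.19 to 0.047 for ry at 29 °C against pre-treatment, from -0.29 to 0.025 for pr and -0.25 to 0.10 for se at 18 °C against pre-treatment, from -0.092 to 0.27 for v, -0.071 to 0.28 for w and -0.17 to 0.20 for pr at 29 against 25 °C, and from -0.089 to 0.21 for ry at 18 against 25 °C. Log2 ratios without 1 library ran from -0.66 to -0.22 (25 °C against pre-treatment) and -0.26 to 0.17 (29 against 25 °C) for w to st, and from -0.78 to -0.32 and -0.65 to -0.19 in the same comparisons for w to bw.

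Counts of all called genes moved by over 1.5 times with no minimum fold (2293 at 29 against 18 °C, and against pre-treatment 1045 at 25 °C, 2726 at 29 °C and 2022 at 18 °C). In fits of 2 groups they were 120 at 25 °C against pre-treatment, 30 at 29 against 25 °C and 87 at 18 against 25 °C. DESeq2 gave 232 at 29 against 25 °C and 682 at 18 against 25 °C, and the depth covariate gave 163 and 722. The covariate of the within-group component gave 1382 at 25 °C and 1857 at 18 °C against pre-treatment, 368 at 29 against 25 °C and 936 at 18 against 25 °C. Leaving out 1 library gave 362 to 794 at 25 °C and 718 to 1418 at 18 °C against pre-treatment, 37 to 116 at 29 against 25 °C and 208 to 500 at 18 against 25 °C, so the shares of all genes called vary likewise. A covariate made from these libraries' own within-group deviations removes spread by construction, so its smaller p-values are no support for v (29 against 18 °C) or se (25 °C against pre-treatment), which it added to the calls. The causes of the other changes were not tested. Sums over each branch were not run, since the ommochrome sum would rest on v alone. Low counts limit cn, which had at most 12 reads in a library, and differences in depth between groups bear on the calls and signs given above for the depth covariate.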
